A study of Mus musculus with 15 samples.

Results

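The comparison set pegylated mesoporous silica (MSN-PEG500) against bare mesoporous silica (MSN500) in RAW264.7, a macrophage cell line from the mouse that was transformed with Abelson virus. Its members were the 6 libraries whose labels name either particle, 3 for MSN-PEG500 and 3 for MSN500, of 15 RNA libraries in all. The other 9 came from untreated cells and from cells given Stober silica of 50 or 500 nm, 3 libraries each, and were kept in the fit to estimate the spread between replicates. MSN-PEG500 cells were given mesoporous silica of 500 nm with a polyethylene glycol coat, with a dosage label of 84 µg/ml. MSN500 cells were given mesoporous silica of 500 nm with no such coat, with a dosage label of 111.8 µg/ml. Both labels give the dose relative to the LC50 without saying if the printed value is the LC50 itself or the amount added, so particle surface and dosage cannot be told apart. All groups were grown in medium with 10% fetal bovine serum and were at passages 6 to 14, and the control cells of the series received fresh medium without particles. Exposure lasted 24 h by the treatment protocol but 4 h by that for extraction, and which holds is not known. Nothing in the labels says that replicates came from separate cultures. The p-values therefore weigh each difference only against the scatter of these samples, which may be technical.

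Macrophages take up silica particles and carry them to the lysosome, and a polyethylene glycol coat is used on particles to reduce the adsorption of serum proteins and the uptake by phagocytes. Cholesterol supply in these cells is held in balance by SREBP2, which switches on the genes of cholesterol synthesis and uptake when sterol in the endoplasmic reticulum is low, and by the LXR receptors, which switch on the export pumps ABCA1 and ABCG1 when oxysterols are high. Macrophages also sense their surroundings through scavenger receptors, integrins, toll-like receptors and TGF-beta signalling.

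Library totals were 17683003 to 22554806 counts in MSN-PEG500 and 19216971 to 23181412 in MSN500. MSN-PEG500 replicate 3 stood apart on the second principal component of log2 CPM (counts scaled to library size), at 19.1 against 3.48 and 4.85 for the other MSN-PEG500 libraries and -9.19 to -5.28 for the MSN500 libraries. The count of all changed genes and those of the lists described in detail are therefore also given without it. Of 13 macrophage markers tested, 2 were higher and 3 lower in MSN-PEG500. Their summed level was 16260 to 17520 CPM in MSN-PEG500 and 17310 to 17910 CPM in MSN500, and Lyz2, Csf1r and Adgre1 averaged 9435, 2626 and 310.4 CPM in MSN-PEG500 and 9997, 2503 and 285 CPM in MSN500. The macrophage list thus held its defining genes at high levels in both groups. Among markers of other cells, the tested genes numbered 1 for fibroblasts, 2 for lymphocytes, 0 for epithelium, 1 for erythroid cells and granulocytes and 1 for dendritic cells. None of those 5 genes reached an average of 10 CPM in either group. Ighm, an immunoglobulin chain on the lymphocyte list, averaged 6.46 ± 0.80 CPM in MSN-PEG500 and 9.30 ± 0.76 CPM in MSN500 (SD, n = 3 each, adjusted p = 0.0038, edgeR quasi-likelihood test), and its part in the other differences was not tested. Of the called macrophage markers, Mertk (higher) and Cebpb (lower) stayed called without any of the 6 libraries, while Spi1 and Tyrobp had adjusted p values of up to 0.228 and 0.136 when 1 library was left out. In bulk RNA, fewer cells of a type and less RNA per cell cannot be told apart.

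Of 12798 genes tested, 1027 (8.02%) differed between MSN-PEG500 and MSN500 at an adjusted p under 0.05 (edgeR quasi-likelihood test with Benjamini-Hochberg adjustment). In MSN-PEG500, 525 genes (4.1%) were higher and 502 (3.92%) were lower. The changes were small: the median absolute log2 fold change of the called genes was 0.22, 48 of them changed by at least 1.5-fold and 11 by at least 2-fold. The 95% interval of the log2 fold change lay within 1.2-fold in either direction for 7122 genes (55.6%). When the test asked for a change beyond 1.2-fold, 13 genes passed, of which 9 were higher and 4 lower. Leaving out MSN500 replicate 1 gave 420 genes, leaving out MSN500 replicate 3 gave 606, MSN-PEG500 replicate 3 gave 615 (348 higher and 267 lower) and MSN500 replicate 2 gave 651, and all 1027 genes kept their direction without any of these libraries. The values of the 6 libraries did not overlap between the groups for 3566 genes (27.9%), among them 1013 of the 1027 called genes. In the authors' deposited table, 1057 genes passed an adjusted p of 0.05 for the same pair of groups, and 936 of these were called here too.

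**Figure D1:**
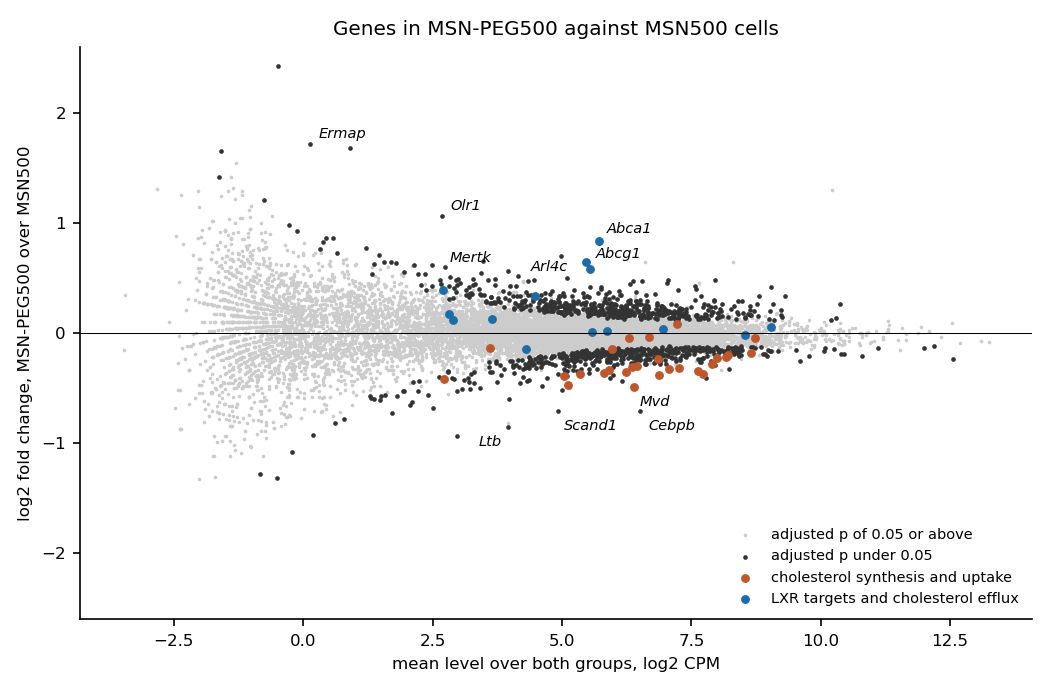
Each point is a gene, with its mean level over both groups in log2 CPM across and its log2 fold change of MSN-PEG500 over MSN500 up. Dark points had an adjusted p under 0.05, and the coloured points are all tested members of 2 gene lists. The orange cholesterol synthesis and uptake genes lie below 0 apart from Npc1, and the blue genes Abca1, Abcg1 and Arl4c stand above the other LXR targets.

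Transcripts for cholesterol synthesis and uptake fell in MSN-PEG500 cells relative to MSN500 cells from the early to the late steps of the pathway. Of 27 members tested, 21 (77.8%) were called lower and 0 higher, against 3.92% of all genes called lower, and the median log2 fold change of the list was -0.31 against 0.0020 for all genes tested. The 21 genes were 1.13-fold to 1.40-fold higher in MSN500, and none of them overlapped between the 3 libraries of each group. That lack of overlap was shared by 1013 of all 1027 called genes, so it is not particular to the list. The list was described for the particle treatments with earlier results in view, so it is not independent evidence of its direction. The count stayed at 20 to 22 genes lower without any of the 6 libraries, with 20 without MSN-PEG500 replicate 3. In the test for a change beyond 1.2-fold, only 1 of the 27 members passed, Mvd, which was lower.

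The falls ran from the first step of the pathway to the last. Acat2, the cytosolic thiolase that joins acetyl-CoA units, was at 28.4, 27.0 and 32.2 CPM in MSN-PEG500, against 43.5, 38.8 and 39.2 CPM in MSN500. The groups did not overlap, and the log2 fold change was -0.47 ± 0.07 (SE, n = 3 each, adjusted p = 0.00015, edgeR quasi-likelihood test). Mvd, the mevalonate diphosphate decarboxylase, had the largest fall of the list, with 69.4, 68.0 and 71.0 CPM in MSN-PEG500 and 102, 93.5 and 97.4 CPM in MSN500 (log2 fold change -0.49 ± 0.05, adjusted p = 2.98e-06, edgeR quasi-likelihood test). Gm20388 overlaps Mvd on the opposite strand, and whether the authors counted by strand is not stated here.

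Past the mevalonate steps, Fdft1, the squalene synthase, averaged 49.3 ± 0.75 CPM in MSN-PEG500 and 63.4 ± 1.91 CPM in MSN500 (SD, n = 3 each), and overlaps Ctsb on the opposite strand. Lss, the lanosterol synthase that closes the sterol ring, was at 102, 99.4 and 104 CPM in MSN-PEG500, against 139, 129.7 and 130.3 CPM in MSN500. Cyp51, the lanosterol demethylase, was at 173, 175 and 204 CPM in MSN-PEG500, against 249.7, 232 and 232 CPM in MSN500. Each of these genes was lower in all 3 MSN-PEG500 libraries than in any MSN500 library. The log2 fold changes of Fdft1, Lss and Cyp51 were -0.36 ± 0.05, -0.38 ± 0.04 and -0.37 ± 0.05 (SE), with adjusted p values of 1.62e-05, 3.22e-06 and 2.65e-05 (edgeR quasi-likelihood test). Replicate 3 had the highest of the MSN-PEG500 values for each of the enzymes Acat2, Mvd, Fdft1, Lss and Cyp51.

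Regulators of the pathway fell as well. Srebf2, which encodes SREBP2, averaged 265 ± 9.46 CPM in MSN-PEG500 and 308 ± 4.70 CPM in MSN500, and Insig1, which holds the SREBP escort in the endoplasmic reticulum, averaged 106 ± 5.68 CPM in MSN-PEG500 and 125 ± 5.12 CPM in MSN500. Both were lower in every MSN-PEG500 library, with log2 fold changes of -0.22 ± 0.05 and -0.24 ± 0.05 (SE, adjusted p = 0.00798 and 0.00384, edgeR quasi-likelihood test). The 6 members that did not pass the test were Tm7sf2, Ebp, Stard4, Scap, Npc1 and Npc2. Scap, the escort protein itself, had a log2 fold change of -0.04 with a 95% interval of -0.14 to 0.06, and Npc1, which moves cholesterol out of the lysosome, one of 0.08 with an interval of -0.02 to 0.18. On the deposited scale per exonic length (FPKM), the levels of the called members ran from 1.57 in MSN-PEG500 and 2.10 in MSN500 for Idi1 to 107 in MSN-PEG500 and 133 in MSN500 for Fdps.

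In control cells most of these genes were at lower levels than in either particle group. The mean of log2 CPM over the 27 members, taken relative to the MSN500 mean, was -0.28, -0.30 and -0.23 in the MSN-PEG500 libraries, 0.019, -0.020 and 0.0015 in the MSN500 libraries and -0.66, -0.66 and -0.63 in the control libraries. For Lss the control cells averaged 67.1 ± 1.92 CPM, for Mvd 46.7 ± 1.98 CPM and for Cyp51 113 ± 3.91 CPM. The order of the 3 groups was thus MSN500 highest, MSN-PEG500 between and control lowest for each of these genes. The comparison of MSN-PEG500 with MSN500 and that of MSN500 with control share the MSN500 libraries, so these levels are a description only.

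**Figure D2:**
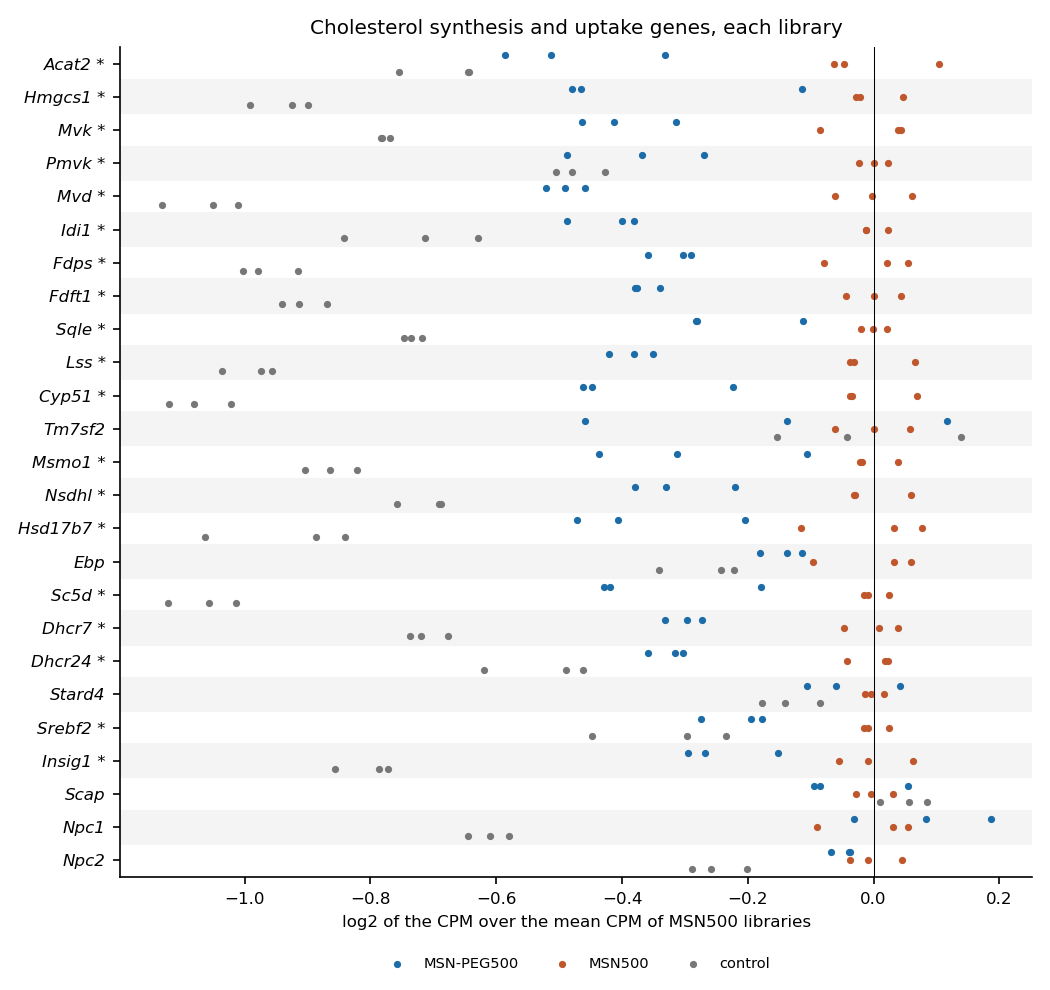
Each dot is 1 library, given as the log2 of its CPM over the mean CPM of the MSN500 libraries, for 25 of the 27 tested cholesterol synthesis and uptake genes from top to bottom. MSN-PEG500 is blue, MSN500 orange and control grey, and a star marks the 19 drawn genes with an adjusted p under 0.05. The blue dots lie left of the orange ones for every starred gene, and the grey ones lie farther left for most of them.

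Promoters of the list were read from RefSeq windows of 300 bases on GRCm38.p6, which run from 250 bases before to 50 after a gene start. Of the 27 genes, 19 had a window, 23 windows in all. The sterol element TCACCCCAC, the classical SREBP site, was searched on both strands. It was found in 1 of the 23 windows (4.35%), that of Hmgcs1, and in 73 of 11432 windows (0.639%) of all tested genes. The E-box CACGTG, a palindrome that SREBPs and other helix-loop-helix factors can bind, was found in 6 of the 23 windows (26.1%), in Dhcr7, Hsd17b7, Insig1, Sc5d and Scap, and in 10.3% of all windows. The Scap windows overlap and hold the same site, which is thus counted more than once. The share was 34.3% for windows of lysosomal hydrolases and membrane proteins, so a share above that of all windows is not particular to the cholesterol list. A match is a description of the letters and no sign of binding. The windows of a synthesis enzyme and of the sterol sensor that fell together are printed 5′ to 3′ with these matches in capitals. They lie at chr13:119690101-119690400 on the plus strand, with the sterol element at bases 114 to 122, and at chr5:28071162-28071461 on the plus strand, with the E-box at bases 150 to 155.
Hmgcs1: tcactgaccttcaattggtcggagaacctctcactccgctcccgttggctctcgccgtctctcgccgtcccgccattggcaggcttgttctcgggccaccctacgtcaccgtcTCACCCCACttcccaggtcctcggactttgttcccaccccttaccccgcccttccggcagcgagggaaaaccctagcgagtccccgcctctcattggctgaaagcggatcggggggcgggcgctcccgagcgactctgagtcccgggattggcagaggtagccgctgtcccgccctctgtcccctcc
Insig1: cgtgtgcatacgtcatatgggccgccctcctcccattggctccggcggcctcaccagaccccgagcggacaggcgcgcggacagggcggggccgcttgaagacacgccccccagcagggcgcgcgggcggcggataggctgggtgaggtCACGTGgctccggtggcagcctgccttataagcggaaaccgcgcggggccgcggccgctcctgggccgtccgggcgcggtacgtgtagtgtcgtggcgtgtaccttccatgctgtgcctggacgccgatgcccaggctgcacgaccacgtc
Hmgcs1, an early synthase of the mevalonate pathway, was at 160.3, 159 and 205 CPM in MSN-PEG500, against 218, 229 and 217 CPM in MSN500. The groups did not overlap, though MSN-PEG500 replicate 3 lay close to the MSN500 values, and the log2 fold change was -0.34 ± 0.07 (SE, adjusted p = 0.0077, edgeR quasi-likelihood test). With the 6 libraries alone in the fit, the adjusted p of Hmgcs1 was 0.0651.

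The cholesterol export pumps Abca1 and Abcg1 were higher in MSN-PEG500. Of 14 LXR targets and efflux genes tested, 3 (21.4%) were called higher and 0 lower, against 4.1% of all genes called higher, and the median log2 fold change of the list was 0.12. Abca1, the pump that loads cholesterol onto apolipoprotein A-I, was at 67.1, 64.9 and 68.4 CPM in MSN-PEG500, against 34.6, 38.8 and 39.0 CPM in MSN500. Abcg1, the pump that loads cholesterol onto HDL, was at 51.2, 55.8 and 53.6 CPM in MSN-PEG500, against 31.9, 37.8 and 33.0 CPM in MSN500. Every MSN-PEG500 library was above every MSN500 library for both pumps. Abca1 was 1.78-fold higher (log2 fold change 0.83 ± 0.08, adjusted p = 1.44e-06) and Abcg1 1.56-fold higher (0.64 ± 0.09, adjusted p = 0.00023, edgeR quasi-likelihood test).

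Arl4c, a small GTPase that is a further LXR target, averaged 55.5 ± 4.21 CPM in MSN-PEG500 and 36.9 ± 4.36 CPM in MSN500 (log2 fold change 0.59 ± 0.07, adjusted p = 8.01e-06, edgeR quasi-likelihood test). Abca1, Abcg1 and Arl4c also passed the test for a change beyond 1.2-fold, and all 3 stayed called without any of the 6 libraries. The other 11 members did not pass. Mylip, a ubiquitin ligase and LXR target, had a log2 fold change of 0.39 with a 95% interval of 0.13 to 0.66 (adjusted p = 0.0577, edgeR quasi-likelihood test). Nr1h3, which encodes LXR alpha, had one of -0.14 with an interval of -0.27 to -0.01 and overlaps Gm13783 on the same strand, and Apoe, the apolipoprotein that carries exported lipid, one of 0.18 with an interval of -0.06 to 0.41. Control cells averaged 44.6 ± 4.00 CPM for Abca1, 51.0 ± 5.46 CPM for Abcg1 and 63.9 ± 1.59 CPM for Arl4c. Abca1 was thus highest in MSN-PEG500, while for Abcg1 and Arl4c the MSN-PEG500 levels lay nearer to control than to MSN500.

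Of 25 genes of fatty acid synthesis, desaturation and storage, 5 (20%) were lower, against 3.92% of all genes, and 0 higher. The median log2 fold change was -0.04. The count of lower genes was 3 without MSN500 replicate 1, 2 without MSN500 replicate 3 and 3 without MSN-PEG500 replicate 3. Fabp5, a fatty acid binding protein, was at 96.2, 101 and 99.4 CPM in MSN-PEG500, against 118, 119.7 and 120.3 CPM in MSN500, with a control mean of 42.9 CPM. Acly, which makes the cytosolic acetyl-CoA for both lipid pathways, averaged 327 ± 8.21 CPM in MSN-PEG500 and 367 ± 5.02 CPM in MSN500. Both were lower in every MSN-PEG500 library, with log2 fold changes of -0.27 ± 0.05 and -0.17 ± 0.04 (SE, adjusted p = 0.000425 and 0.00622, edgeR quasi-likelihood test).

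Olr1 and Mertk, a pair of surface receptors, were higher in MSN-PEG500. Of 24 scavenger and C-type lectin receptors, 3 (12.5%) were higher and 1 (4.17%) lower, against 4.1% and 3.92% of all genes. The list median was 0.02, and without MSN-PEG500 replicate 3 the counts were again 3 and 1. With all libraries the higher ones were Stab1, Olr1 and Mertk and the lower one Scarb1, the HDL receptor. Without MSN-PEG500 replicate 3 the adjusted p of Scarb1 was 0.0685 (edgeR quasi-likelihood test), so the 1 lower member was then another gene. The adjusted p of Stab1 was up to 0.129 when 1 library was left out. Olr1, the receptor for oxidised LDL, was at 9.41, 8.78 and 8.09 CPM in MSN-PEG500, against 2.99, 4.42 and 5.01 CPM in MSN500. Mertk, the receptor with which macrophages bind apoptotic cells, was at 18.7, 18.5 and 18.6 CPM in MSN-PEG500, against 12.7, 11.3 and 13.6 CPM in MSN500. The 3 MSN-PEG500 values of Mertk were almost the same, and neither gene overlapped between the groups. Olr1 was 2.09-fold higher (log2 fold change 1.07 ± 0.14, adjusted p = 4.33e-05) and Mertk 1.48-fold higher (0.57 ± 0.07, adjusted p = 2.22e-05, edgeR quasi-likelihood test). Control cells held more Olr1 than any MSN500 library, 13.2 CPM at most, and averaged 18.9 ± 0.67 CPM of Mertk, so that MSN500 was the lowest of the 3 groups for both.

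The integrin pair that binds vitronectin rose as well. Itgav, the alpha V chain, was at 293, 269.9 and 301 CPM in MSN-PEG500, against 207, 199.7 and 210.3 CPM in MSN500. Itgb5, the beta 5 chain, was at 228, 223 and 205 CPM in MSN-PEG500, against 164, 169 and 163 CPM in MSN500. All MSN-PEG500 values exceeded all MSN500 values, with log2 fold changes of 0.49 ± 0.08 for Itgav and 0.40 ± 0.05 for Itgb5 (SE, adjusted p = 0.00216 and 4.03e-06, edgeR quasi-likelihood test). The control means were 394 and 350.1 CPM. These were the 2 higher members of 43 actin cytoskeleton and adhesion genes (4.65%), a share near the 4.1% of all genes called higher. A further 4 (9.3%) were lower, against 3.92% of all genes, namely Actb, Arpc1b, Cfl1 and Pfn1. None of those 4 was called without MSN500 replicate 1 or without MSN-PEG500 replicate 3.

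Of 35 Fc, complement and toll-like receptor genes, 5 (14.3%) were higher, against 4.1% of all genes, and 0 lower. The 5 were C3ar1, Tlr4, Tlr7, Tlr8 and Tlr13. Without MSN500 replicate 1 the count was 2, without MSN-PEG500 replicate 1 it was 3, and without MSN-PEG500 replicate 3 it was 4. Tlr8 and Tlr13, sensors of RNA in endosomes, stayed called without any of the 6 libraries. Tlr8 was at 23.5, 23.4 and 24.1 CPM in MSN-PEG500, against 16.7, 19.6 and 19.2 CPM in MSN500 (log2 fold change 0.35 ± 0.07, adjusted p = 0.00241, edgeR quasi-likelihood test). Tlr13 was at 292, 285 and 317 CPM in MSN-PEG500, against 237, 258 and 247 CPM in MSN500 (log2 fold change 0.27 ± 0.04, adjusted p = 0.000405, edgeR quasi-likelihood test). The groups did not overlap for either receptor.

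Of 30 TGF-beta signalling and matrix genes tested, 6 (20%) were higher and 1 (3.33%) lower, against 4.1% and 3.92% of all genes. The list median was 0.10. The higher ones included Tgfbr1, Ski, Skil, Tgfbi and Thbs1, and the lower one was Pdgfb. Without MSN500 replicate 1 only 3 were called higher and without MSN-PEG500 replicate 3 there were 4, and Pdgfb was called in none of the fits that left out MSN-PEG500 replicate 1, MSN-PEG500 replicate 3 or any MSN500 library. Skil, a feedback inhibitor of SMAD proteins, was at 234, 229 and 222 CPM in MSN-PEG500, against 179, 173 and 191 CPM in MSN500 (log2 fold change 0.33 ± 0.04, adjusted p = 2.57e-05, edgeR quasi-likelihood test). Ski, its relative, averaged 121 ± 3.36 CPM in MSN-PEG500 and 104 ± 6.37 CPM in MSN500. Its adjusted p was 0.00183 (edgeR quasi-likelihood test), and it stayed called without any of the 6 libraries.

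Pmepa1, a TGF-beta induced inhibitor of SMAD signalling that was named by the size of its change, was at 77.0, 64.2 and 58.8 CPM in MSN-PEG500, against 40.6, 31.3 and 42.1 CPM in MSN500. It was higher in all 3 MSN-PEG500 libraries, by 1.76-fold (log2 fold change 0.82 ± 0.13, adjusted p = 0.00311, edgeR quasi-likelihood test). Control cells averaged 71.5 ± 2.77 CPM of Pmepa1 and 283 ± 10.3 CPM of Skil.

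**Figure D3:**
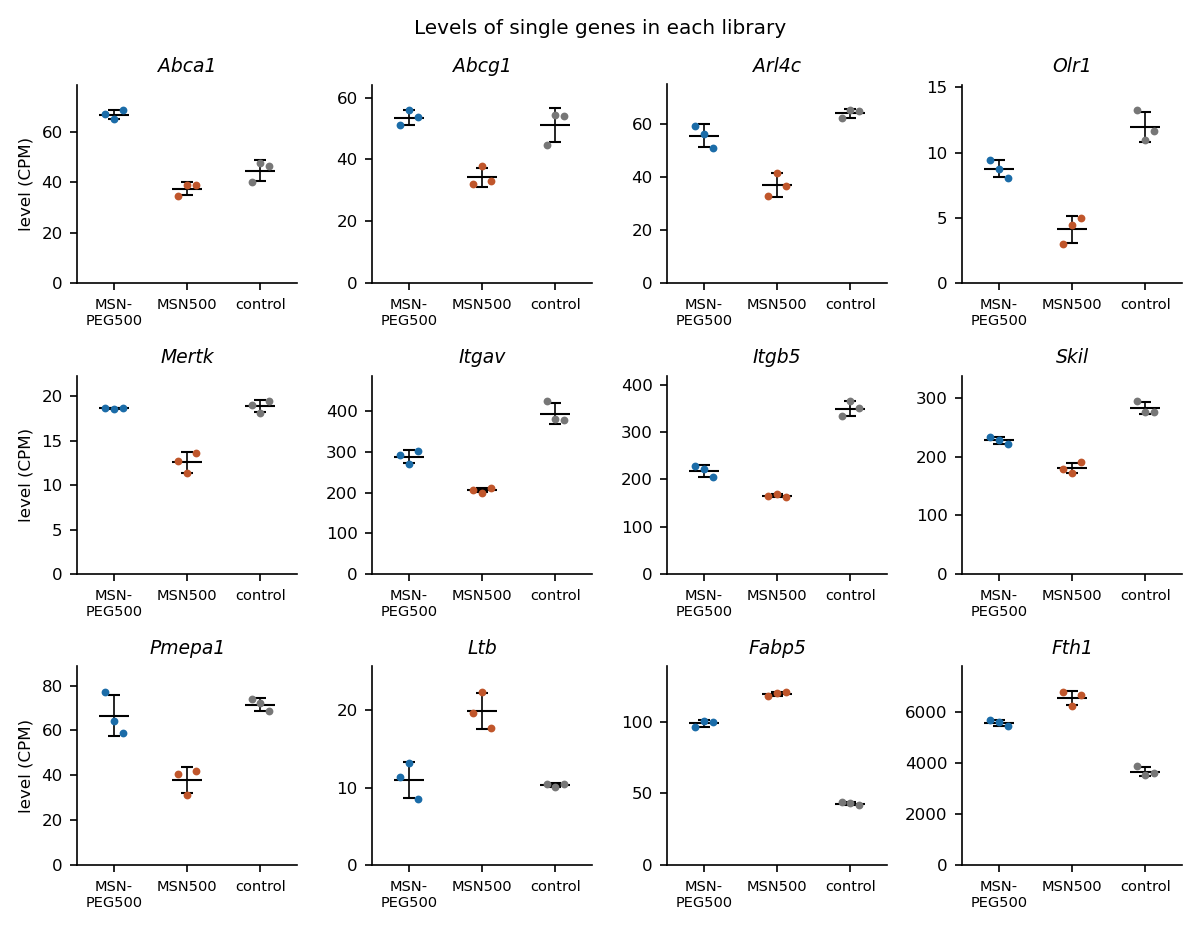
The panels give the level in CPM of 12 genes in the 3 libraries of MSN-PEG500 (left), MSN500 (middle) and control (right), with the mean and SD as bars. Abca1 to Pmepa1 lie higher in MSN-PEG500 than in MSN500, and Ltb, Fabp5 and Fth1 lie lower, with no overlap between those groups in any panel.

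Of 14 genes of osteoclast-like differentiation, 3 (21.4%) rose, against 4.1% of all genes, with 0 lower and a list median of 0.07. Nfatc1, the master transcription factor of osteoclasts, was at 117, 111 and 102 CPM in MSN-PEG500, against 88.9, 81.4 and 89.5 CPM in MSN500. Mitf, a transcription factor of osteoclasts and of lysosomal genes, was at 134, 133 and 135 CPM in MSN-PEG500, against 104, 123 and 113 CPM in MSN500. Tnfrsf11a, which encodes the receptor RANK, was at 138, 138 and 136 CPM in MSN-PEG500, against 122, 119.6 and 120.0 CPM in MSN500. The 3 genes were higher in every MSN-PEG500 library, with log2 fold changes of 0.34 ± 0.05, 0.24 ± 0.05 and 0.19 ± 0.04 (SE, adjusted p = 0.00017, 0.00235 and 0.00685, edgeR quasi-likelihood test), and the count was 3 without any of the 6 libraries. Gm15531 overlaps Mitf on the opposite strand. Fosl2, a member of the AP-1 family of transcription factors, averaged 77.8 ± 4.28 CPM in MSN-PEG500 and 61.2 ± 4.81 CPM in MSN500 (adjusted p = 0.0072, edgeR quasi-likelihood test). Ptgs1, the constitutive cyclooxygenase, was the 1 called gene of 16 for eicosanoid synthesis (6.25%), against 4.1% of all genes called higher. It averaged 139 ± 5.40 CPM in MSN-PEG500 and 120.2 ± 2.23 CPM in MSN500 (adjusted p = 0.00494, edgeR quasi-likelihood test).

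Some iron handling genes were lower in MSN-PEG500. Of 16 genes of heme breakdown, ferritin and iron transport, 5 (31.2%) were lower, against 3.92% of all genes, and 0 higher. The list median was -0.08, and 11 did not pass. When any 1 of the 6 libraries was left out, 4 or 5 were lower, with 5 without MSN-PEG500 replicate 3. Fth1, the ferritin heavy chain and one of the most abundant transcripts of these cells, was at 5658, 5606 and 5432 CPM in MSN-PEG500, against 6749.9, 6219 and 6636 CPM in MSN500. Ftl1, the ferritin light chain, averaged 1645 ± 126 CPM in MSN-PEG500 and 1901 ± 59.8 CPM in MSN500, and Slc11a2, an importer of ferrous iron, averaged 85.6 ± 1.31 CPM in MSN-PEG500 and 98.1 ± 1.94 CPM in MSN500. None of the 3 overlapped between the groups, and their log2 fold changes were -0.23 ± 0.04, -0.21 ± 0.04 and -0.20 ± 0.04 (SE, adjusted p = 0.00156, 0.00484 and 0.00555, edgeR quasi-likelihood test). Hmox1, the heme oxygenase of the same list, had a log2 fold change of -0.02 with a 95% interval of -0.13 to 0.08, at 314 ± 11.1 CPM in MSN-PEG500 and 319 ± 14.6 CPM in MSN500. A gene named Gm22133 overlaps Ftl1 on the same strand.

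Inflammatory genes gave few calls. Of 27 NF-kB cytokines and chemokines, 0 passed in either direction with the edgeR quasi-likelihood test, 7 had an unadjusted p under 0.05, and the DESeq2 Wald test called 3 and limma-voom 0. Of 40 interferon response genes, 0 passed, 9 had an unadjusted p under 0.05, and DESeq2 and limma-voom called 0. Over all 12798 genes tested, 2952 had an unadjusted p under 0.05 with the edgeR quasi-likelihood test. For Tnf, the values were 151, 135 and 105 CPM in MSN-PEG500, against 148, 159 and 169.9 CPM in MSN500, which overlap. The 95% interval of its log2 fold change was -0.69 to 0.12. For Il1b the interval was -0.38 to 0.72, for Cxcl2 -0.63 to 0.37 and for Ccl2 -0.29 to 0.44, and the last 3 intervals include changes beyond 1.2-fold in either direction. Of 24 NF-kB feedback and signalling genes, 4 (16.7%) were lower, against 3.92% of all genes, namely Nfkb2, Tnip1, Icam1 and Cd40. The count was 2 without MSN500 replicate 1 and 1 without MSN-PEG500 replicate 3.

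Some single genes of inflammation did differ. Ltb, which encodes lymphotoxin beta, was at 11.4, 13.2 and 8.56 CPM in MSN-PEG500, against 19.6, 22.3 and 17.7 CPM in MSN500. Cebpb, a transcription factor of macrophage activation, was at 74.5, 71.4 and 61.3 CPM in MSN-PEG500, against 105, 113 and 121 CPM in MSN500. The groups did not overlap, and the log2 fold changes were -0.85 ± 0.12 for Ltb and -0.71 ± 0.12 for Cebpb (SE, adjusted p = 0.000142 and 0.00658, edgeR quasi-likelihood test). Control cells averaged 10.3 ± 0.21 CPM of Ltb and 83.0 ± 11.1 CPM of Cebpb. Tmem189 overlaps Cebpb on the opposite strand. Sod2, the mitochondrial superoxide dismutase, averaged 149 ± 3.80 CPM in MSN-PEG500 and 171 ± 2.67 CPM in MSN500 (log2 fold change -0.20 ± 0.04, adjusted p = 0.00322, edgeR quasi-likelihood test).

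Among the 24 genes named by the size of their change, 10 stayed called under every alternative other than the test beyond 1.2-fold, 5 higher and 5 lower. The higher ones were Ermap, Olr1, Abca1, Pmepa1 and Zbed5, the last of which overlaps Phkg1 on the opposite strand. Ermap, an erythroid membrane protein of the butyrophilin family, had the largest rise of these, at 1.90, 1.39 and 1.72 CPM in MSN-PEG500, against 0.641, 0.186 and 0.709 CPM in MSN500 (log2 fold change 1.72 ± 0.32, adjusted p = 0.00134, edgeR quasi-likelihood test). It was a gene of low level, and its control mean was 2.45 CPM. Among the lower ones, Scand1, a SCAN domain protein that overlaps Cnbd2 on the opposite strand, was at 24.7, 24.0 and 19.7 CPM in MSN-PEG500, against 38.2, 37.6 and 36.4 CPM in MSN500 (log2 fold change -0.71 ± 0.08, adjusted p = 5.87e-06, edgeR quasi-likelihood test).

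Genes with the lowest p of all tested were looked at after their values were seen. Fmn1, a formin that builds actin filaments, was at 154, 150.4 and 159 CPM in MSN-PEG500, against 112, 110.4 and 108 CPM in MSN500 (log2 fold change 0.49 ± 0.04, adjusted p = 4.0e-07, edgeR quasi-likelihood test). Havcr2, the checkpoint receptor TIM-3, was at 153, 146 and 155 CPM in MSN-PEG500, against 109, 107 and 117 CPM in MSN500 (log2 fold change 0.45 ± 0.05, adjusted p = 1.44e-06, edgeR quasi-likelihood test). Aacs, the acetoacetyl-CoA synthetase that feeds ketone bodies into lipid synthesis, was at 62.8, 61.2 and 58.3 CPM in MSN-PEG500, against 84.0, 81.3 and 81.6 CPM in MSN500 (log2 fold change -0.44 ± 0.04, adjusted p = 1.44e-06, edgeR quasi-likelihood test). Each of the 3 had narrow groups that lay well apart. The MSN-PEG500 means of Fmn1 and Havcr2, 154 and 151 CPM, lay near the control means of 152 and 159 CPM, while Aacs averaged 40.8 CPM in control cells. Gm13963 and Gm13966 overlap Fmn1 on the opposite strand.

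Some lysosome and stress lists held a larger share of lower members than all genes tested, of which 4.1% were higher and 3.92% lower. Lysosomal hydrolases and membrane proteins had 1 higher (2.5%) and 5 lower (12.5%) of 40, and vacuolar ATPase subunits 1 (5.56%) and 2 (11.1%) of 18. Metallothioneins and zinc transport had 0 higher and 3 lower (20%) of 15, and NRF2 antioxidant genes 0 and 3 (12%) of 25. Without MSN-PEG500 replicate 3 the lower members of these lists numbered 1, 2, 1 and 2 in the same order. Whichever of the 6 libraries was left out, the lower lysosomal members numbered 1 to 3 and those of metallothioneins and zinc transport 0 or 1. Those of the vacuolar ATPase numbered 1 to 2 and the NRF2 ones 1 to 3. Autophagy genes had 6 higher (18.2%) and 0 lower of 33, namely Ulk2, Atg13, Atg2a, Atg2b, Nbr1 and Mitf, and the count was 2 without MSN500 replicate 1 and 3 without MSN500 replicate 2, MSN-PEG500 replicate 1 or MSN-PEG500 replicate 3. Nbr1, a cargo receptor of autophagy, averaged 109 ± 6.05 CPM in MSN-PEG500 and 92.1 ± 2.88 CPM in MSN500 (adjusted p = 0.00134, edgeR quasi-likelihood test), and was called without any of the 6 libraries; a further annotated gene overlaps it on the same strand. Beside cytokines and interferon genes, the lists with 0 called members by edgeR were galectins and ESCRT (8 of 21 at an unadjusted p under 0.05, 1 called by DESeq2), NADPH oxidase subunits (5 of 7, 2 by DESeq2), mitochondrially encoded genes (1 of 9, 0 by DESeq2), replication-dependent histones (1 of 6, 0 by DESeq2) and small nucleolar RNA host genes (3 of 12, 1 by DESeq2), and limma-voom called 0 in each. Of all 12798 genes tested, 2952 had an unadjusted p under 0.05. The single genes Gpnmb, Atp6v0d2 and Il7r, whose means in both particle groups were above control, did not pass the test between those groups. Gpnmb, a lysosomal glycoprotein, averaged 8563 CPM in MSN-PEG500, 9018 CPM in MSN500 and 2781 CPM in control, with a 95% interval of the log2 fold change between the particle groups of -0.19 to 0.04. For Atp6v0d2, a proton pump subunit, the averages were 24.6 CPM in MSN-PEG500, 25.8 CPM in MSN500 and 2.02 CPM in control, with an interval of -0.25 to 0.12. For Il7r, the receptor of interleukin 7, they were 31.6 CPM in MSN-PEG500, 30.8 CPM in MSN500 and 2.91 CPM in control, with an interval of -0.24 to 0.31.

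The remaining lists follow with higher, then lower members, against 4.1% higher and 3.92% lower of all genes. ER chaperones had 0 and 1 (4%) of 25, and ATF4 and amino acid supply 1 (2.7%) and 5 (13.5%) of 37. Heat shock proteins had 1 (5.88%) and 2 (11.8%) of 17, and p53 targets 1 (3.45%) and 3 (10.3%) of 29. The BCL2 family had 1 and 1 (5.88% each) of 17, and immediate early genes 3 (8.82%) and 1 (2.94%) of 34. Mitosis had 2 (5%) and 1 (2.5%) of 40, and DNA replication 3 (6.82%) and 0 of 44. Glycolysis and hypoxia had 1 (2.94%) and 0 of 34, and the inflammasome 1 (8.33%) and 0 of 12. Ribosomal proteins had 1 (2.13%) and 5 (10.6%) of 47, and the proteasome 0 and 4 (12.5%) of 32. Of 41 list counts above 0 over all 36 lists, 32 moved by over 1.5 times without at least 1 of the 6 libraries. The counts that did not were those of cholesterol synthesis, LXR targets, iron handling, osteoclast-like genes, scavenger receptors in both directions, higher integrins, the higher heat shock gene and eicosanoid synthesis. A steady count need not rest on the same genes, since Scarb1 was not the lower scavenger receptor without MSN-PEG500 replicate 3.

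**Figure D4:**
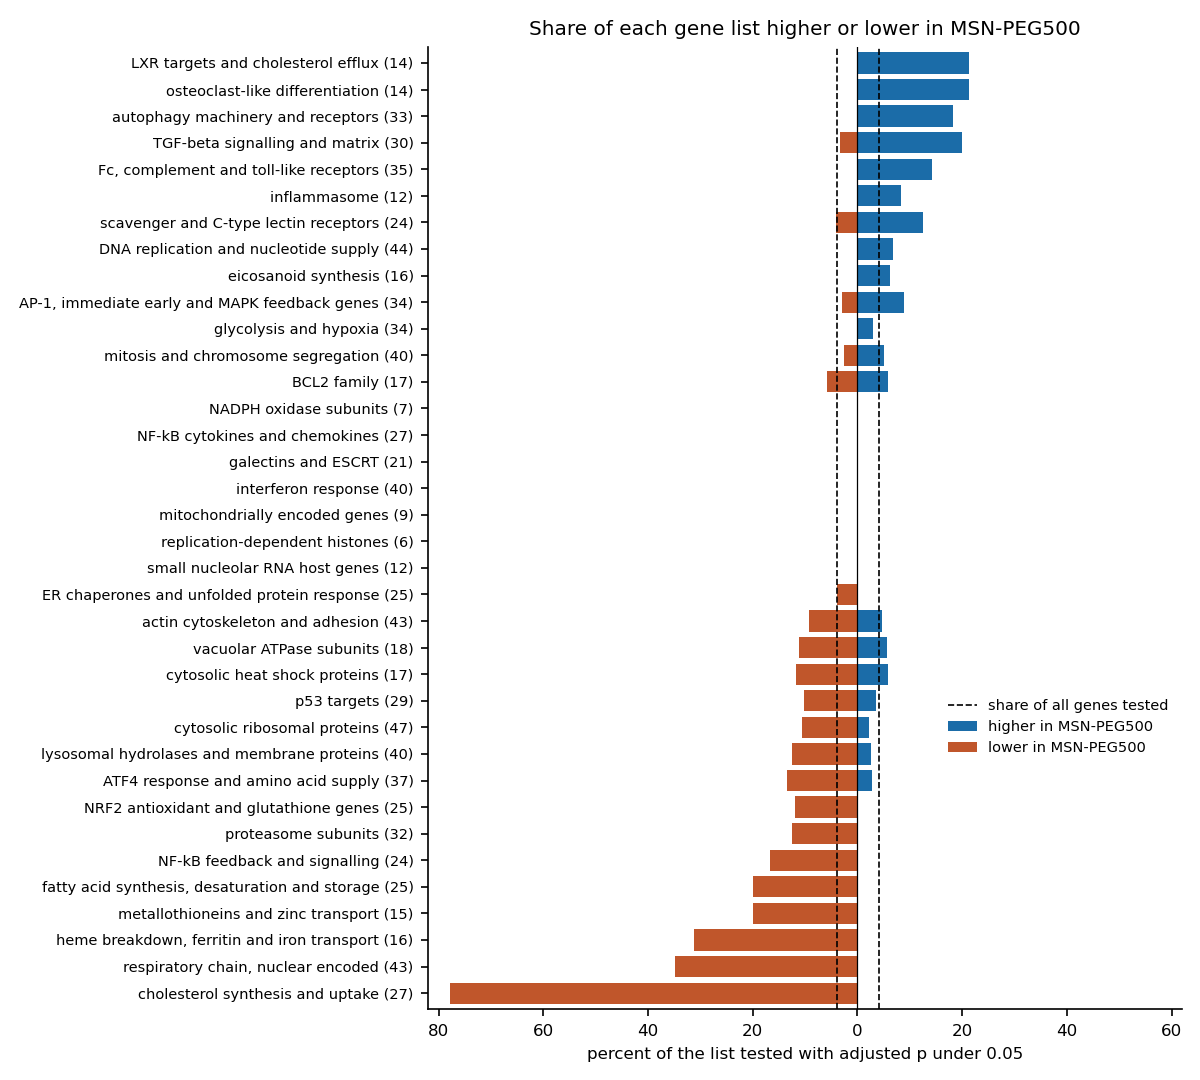
Each row is a gene list with the number of genes tested in brackets, and the bars give the percent of them with an adjusted p under 0.05, to the right where higher in MSN-PEG500 and to the left where lower. Dashed lines mark the share of all genes tested, 4.1% higher and 3.92% lower. Cholesterol synthesis and uptake reaches 77.8% lower, followed by the respiratory chain with 34.9%.

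Nuclear genes of the respiratory chain had the next largest share of lower members after cholesterol synthesis, 15 of 43 (34.9%) with 0 higher and a median log2 fold change of -0.11. The count was 4 without MSN500 replicate 1, 6 without MSN500 replicate 2 and 6 without MSN-PEG500 replicate 3. Cox5a, a subunit of cytochrome c oxidase, was at 239, 235 and 221 CPM in MSN-PEG500, against 278, 261 and 268 CPM in MSN500 (log2 fold change -0.22 ± 0.04, adjusted p = 0.000899, edgeR quasi-likelihood test). Uqcrq, a subunit of complex III, was at 117, 125 and 107 CPM in MSN-PEG500, against 150.1, 137 and 136 CPM in MSN500 (log2 fold change -0.28 ± 0.05, adjusted p = 0.00212, edgeR quasi-likelihood test). Both genes are short, and the median exonic length of the list was 1831 bases, against 3505 bases for the cholesterol list.

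Exonic length moved with the difference across all genes. The 2561 shortest genes, of 53 to 1648 exonic bases, had a median log2 fold change of -0.06 with 0.742% higher and 7.18% lower, and the 2559 longest, of 5895 to 52997 bases, had a median of 0.06 with 11.2% higher and 0.86% lower. Spearman's rho between log2 fold change and exonic length was 0.267 across 12797 genes, which are not independent replicates. Within single libraries, log2 level relative to the mean of these 6 libraries was set against length. Its rho was 0.108, 0.0584 and 0.262 in MSN-PEG500 and -0.198, -0.219 and -0.18 in MSN500. The groups did not overlap, but both make up that mean, so their opposite signs partly follow from it and are not separate evidence. With a trend on length removed from each library, 635 genes were called, 287 higher and 348 lower, and the respiratory chain list had 6 lower. The cholesterol list then still had 21 lower and the LXR list 3 higher, and the log2 fold change was -0.45 for Mvd, 0.75 for Abca1, 1.07 for Olr1 and 0.41 for Itgb5. The log2 fold change also moved with GC content, with a Spearman's rho of -0.232 across 12643 genes. Without MSN-PEG500 replicate 3 that rho was -0.0408, while the rho with length was 0.198. With trends on length and GC content removed, the cholesterol list had 21 lower and the LXR list 4 higher. The log2 fold change was then -0.41 for Mvd, 0.74 for Abca1, -0.49 for Scand1 and -0.54 for Cebpb. For other genes described here it was 0.35 for Fmn1, 0.23 for Skil, -0.15 for Fth1 and -0.13 for Ftl1. The values of Scand1, Cebpb, Fmn1, Skil, Fth1 and Ftl1 were smaller in size than those given for them above. The part of length and GC content in the other differences was not tested further.

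**Figure D5:**
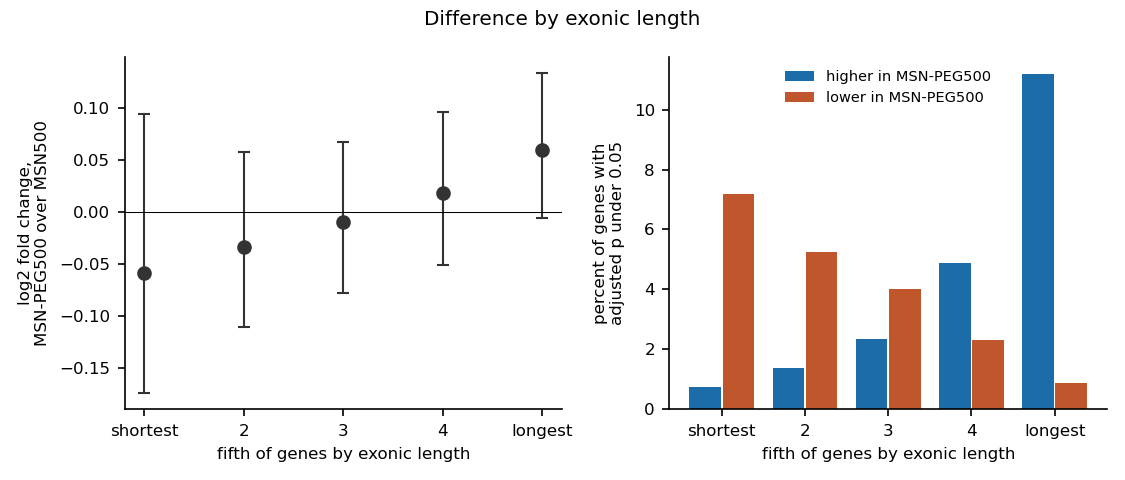
Genes were sorted by exonic length into 5 groups of equal size from shortest to longest. The left panel gives the median log2 fold change of MSN-PEG500 over MSN500 with its quartiles, and the right panel the percent of genes with an adjusted p under 0.05 that were higher (blue) or lower (orange) in MSN-PEG500. The medians climb from -0.06 in the shortest to 0.06 in the longest genes.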

How the data were processed

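RNA was sequenced from 15 libraries of RAW264.7 cells, and per the labels' protocols the libraries were TruSeq preparations read for 50 cycles from 1 end, at most 8 to a lane, from RNA with integrity numbers of 8 to 10. No lane or batch of a library is given. The submitters' processing notes list the build GRCm38 (mm10) and, as tools, limma 3.28.21, Novoalign 2.08.03 and DESeq2. The authors deposited raw counts per gene, where per the file headers an alignment that overlaps a gene by at least 1 base was counted, and FPKM values per exonic length. Their deposited table also holds log2 ratios between groups and scores, which per the file headers are transformed adjusted p-values.

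From the counts, genes were filtered with filterByExpr and scaled with TMM (factors of 0.974 to 1.02), and edgeR 4.0.16 fitted the quasi-likelihood model with robust dispersion to all 15 libraries, in R 4.3.3. MSN-PEG500 was set against MSN500, with Benjamini-Hochberg adjustment over 12798 of 13342 genes and a threshold of 0.05. CPM values are scaled by TMM, and 3 counts equal 0.129 to 0.17 CPM in the 6 libraries. Replicate libraries differed by more than counting noise (chi-square per degree of freedom 2.19 to 6.4). Alternatives were other scalings, DESeq2 1.42.0, limma-voom (limma 3.58.1), other filters, the 6 libraries alone, a replicate block, a test beyond 1.2-fold, removal of a length trend and leaving out each library. Removal of trends on length and GC content was added after seeing the data. The edgeR and length steps were tested on simulated data. Named genes were the 12 largest non-overlapping changes in each direction with a mean of at least 1 CPM, up to 3 called members of each list and direction with the lowest p, and 16 genes that stood out in earlier results. The remaining cholesterol and LXR genes, the called macrophage markers and the genes with the lowest p overall were added after their values were seen. Members and lists were chosen with earlier results of these data known. Promoter sequences are from RefSeq on GRCm38.p6. Gene coordinates follow the annotation of the deposited files. Results for some genes are not reported here.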

Additional observations from a re-analysis of the deposited data

Results flagged for a closer look

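In the authors' deposited table, which also tests single exons with a chi-square on reads that does not model replicates, 160 genes had an exon score of at least 20 and an exon log2 difference of at least 1 for MSN-PEG500 over MSN500. The comparisons above do not use these exon values. The difference was lower in MSN-PEG500 for 153 of the 160 genes, and for 121 the exon lay within 50 bases of the gene start. In the authors' deposited table, the other comparisons with MSN-PEG500 gave 140, 141 and 280 such genes, and the 6 comparisons without it gave 2 to 27. The highest exon scores in the authors' deposited table belonged to Hnrnpab (exon log2 difference -1.06), Lamp1 (-1.92) and Odc1 (-1.51).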

How the results depend on the processing

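All 1027 genes kept their direction without any single library of the 6, and the counts then ran from 420 to 1032 genes called, 236 to 453 higher and 184 to 579 lower. Testing beyond 1.2-fold left 13 genes, 9 higher and 4 lower. Removing the length trend left 635 genes, 287 of them higher, and removing length and GC trends gave 978 genes, of which 40.5% were higher against 51.1% without removal. The cause of these shifts was not tested. Other scalings, tests and filters and the fit of the 6 libraries alone gave 841 to 1097 genes. Over all genes, libraries of the same replicate number showed little pairing (correlations of deviations -0.0095 to 0.033), and pairing in a part of the genes was not tested. A replicate block gave 1246 genes in 15 libraries and 1344 in the 6, against 1027 and 841 without the block.

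Of 137 called genes named or described, 66 stayed called in every alternative other than the 1.2-fold test. Among the genes named or described, those whose sign reversed had not passed the test. Of all 1027 called genes, 1026 kept their direction with the length trend removed and 1024 with length and GC trends removed. With the length trend removed, the log2 fold change was 0.0087 for Hmox1 and -0.0044 for Npc1. With length and GC trends removed it was 0.023 for Hmox1, -0.0015 for Il7r and -0.023 for Npc1. With 1 library left out, it ran from -0.060 to 0.0046 for Hmox1, from -0.14 to 0.16 for Il7r, from -0.040 to 0.090 for Nr1h2, from -0.012 to 0.038 for Lpcat3, from -0.11 to 0.053 for Nceh1, from -0.20 to 0.061 for Atp6v0d2, from -0.015 to 0.11 for Srebf1, from -0.30 to 0.0035 for Tm7sf2 and from -0.067 to 0.20 for Ccl2. Intervals cover counting and replicate error of these libraries only, and genes under a few CPM, such as Ermap, rest on few counts.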

Other observations

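A few more genes among those with the lowest p, chosen after their values were seen, are given as values. B4galt1, a galactosyltransferase of the Golgi, was at 215, 209 and 229 CPM in MSN-PEG500, against 164, 157 and 164 CPM in MSN500 (log2 fold change 0.43 ± 0.05, adjusted p = 2.87e-06, edgeR quasi-likelihood test). Ptma, the chromatin protein prothymosin alpha, was at 185, 198 and 186 CPM in MSN-PEG500, against 257, 245 and 251 CPM in MSN500 (log2 fold change -0.40 ± 0.04, adjusted p = 3.45e-06, edgeR quasi-likelihood test). The groups did not overlap for either gene.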
